A study of Columba livia with 6 samples.

Results

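The loci described here are stretches of the pigeon genome that carried reads in the ovary, had no gene name and no protein description, and lay opposite a named gene. A row of the deposited table counted as one when its interval overlapped at least 1 named row on the other strand and no named row on its own strand. This gave 405 of the 34346 loci, 188 on the plus strand and 217 on the minus strand. They are called antisense loci below, each is named by the gene on the other strand, and that gene is called its sense gene. The data are RNA-seq libraries of the ovaries of 6 female domestic pigeons (Columba livia). The HP group held 3 birds that laid many eggs (HP1 to HP3), and the LP group held 3 that laid few (LP4 to LP6). All 6 birds were 2 years old, sexually mature and untreated, came from 1 flock hatched in the same batch, and were picked as the best and the poorest layers. Each library came from 1 bird. Whether the birds were sampled at the same point of the laying cycle is not given in the sources used here, and an ovary sample mixes follicle, stroma and other cells. A difference in cell numbers and a difference in RNA per cell thus cannot be told apart.

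Antisense transcripts are made from the strand opposite a gene, often from inside its introns or from its ends, and most are long non-coding RNAs. In other animals, single antisense RNAs are known to act on their sense gene, by recruiting chromatin factors, by transcription that runs against the gene or by pairing with its RNA, and others have no known action. Read counting needs the strand to separate them from the sense gene. The libraries were made with dUTP in the second cDNA strand, which keeps the strand, but whether the counting used it is not given in the sources used here. If it did not, reads of overlapping genes cannot be assigned to 1 strand.

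Transcripts of some loci, chosen among those that differed in the study's RNA-seq, were measured by qPCR in the study. It reports that the qPCR fold changes matched those of its RNA-seq. The primer list used here holds 1 pair for an antisense locus, for the transcript MSTRG.18396.3. The pair is shown because that list has no other primer of an antisense locus. The primers have 20 bases each and are written 5′ to 3′ and in lower case throughout.
MSTRG.18396.3 forward: cttatggggacccgctatgg
MSTRG.18396.3 reverse: atgtgacgtgtaactcgggg
The locus, MSTRG.18396 (Cliv_1.0 scaffold NW_004973574.1, 5674 to 6867, minus strand), lay opposite LOC102096326. The HP ovaries had 0, 835 and 889 counts there, against 246, 1759 and 1831 in the LP ovaries, in the order of their numbers here and below. These counts and those of MSTRG.9860 below are of the whole locus, whereas the study's call and qPCR were of single transcripts. The groups overlapped, and HP1 held no read of MSTRG.18396. Its fitted log2 fold change was -1.16 ± 1.58 (SE), with an adjusted p = 0.863 in edgeR's quasi-likelihood test. LOC102096326 itself had 751, 1213 and 2318 counts in the HP ovaries, against 3177, 525 and 3132 in the LP ovaries. The methods also name a qPCR target at MSTRG.9860, opposite CUNH7orf50;GPER1, where GPER1 is a membrane estrogen receptor. MSTRG.9860 had 234, 131 and 160 counts in the HP ovaries, against 226, 152 and 292 in the LP ovaries, and the groups overlapped.

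The counts of an ovary summed to 99571171 to 108417842 in HP and 97875183 to 108669967 in LP. The highest sum of either group was above the largest number of raw reads that the study reports for any library. The counts in those ovaries thus cannot be reads counted once each. How the counts were made is not given in the sources used here. The ovary markers listed in the table under their own symbols were 11 of 18 (FSHR, AMH, GDF9 and others), with a summed level of 1292 to 2270 CPM in HP and 1517 to 1909 CPM in LP (CPM is the count scaled to a library of standard size with TMM factors). Markers of other tissues differed between single ovaries. The summed kidney list (6 of 9 listed) was 210 CPM in HP2 and 31.3 to 60.8 CPM in the other 5, the adrenal medulla list (5 of 5) was 196 CPM in HP3 and 74.0 to 120 CPM in the others, and the smooth muscle list (4 of 5) was 445 to 824 CPM in HP and 507 to 2589 CPM in LP, highest in LP5.

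The antisense loci were short next to the genes they faced. Their genomic span was 226 to 120192 bases with a median of 4596, against a median of 64897 bases for the sense loci, 2169 for the 2043 other unnamed loci with a strand and 8906 for named loci. Of the 405, 338 had a single transcript. They faced 332 named loci, 1.21% of the 27340 named loci with a strand. RefSeq (bColLiv1.pat.W.v2, used for names only) matched 268 of these 332, of which 259 were protein coding, 7 lncRNA and 2 pseudogenes. In 317 cases (78.3%) the antisense locus lay wholly within the sense locus, in 42 the 3′ ends overlapped, in 40 the 5′ ends overlapped, and 6 spanned the whole sense locus. Of the 317, 150 had their centre in the part of the sense locus nearest its 5′ end, 72 in the middle and 95 nearest the 3′ end, with the sense locus split into 3 equal parts. The table gives no exon positions, so introns and exons could not be told apart. The smallest overlap was 1 base, at EXD3;LOC110356167, the next was 25 bases, and the nearest unnamed locus that missed the rule stood 1 base from a named locus on the other strand.

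The name of the sense gene is less certain for part of the set. For 266 antisense loci the named locus held at least 1 transcript of the reference annotation, and for 139 it held assembled transcripts only, so that the symbol came with the table and not with a reference transcript there. Of all 405, 92 faced a locus that joins several symbols.

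The antisense loci were low next to their sense genes. The median mean level was 6.42 CPM (quartiles 2.15 and 19.8), against 63.4 CPM for the sense loci. Other unnamed loci with a strand had a median of 3.77 CPM and named loci 4.58 CPM. Together the antisense loci took 1.10 to 1.26% of all counts in HP and 1.26 to 1.52% in LP. Without the single most abundant one they took 0.676 to 0.811% in HP and 0.764 to 0.796% in LP. Per pair, the median log2 ratio of antisense to sense counts was -2.86, a fold of 0.138, and the antisense count was the higher one in 69 pairs. The log2 ratio of FPKM, the deposited value per length, had a median of -2.25 (quartiles -4.83 and 0.47) with the antisense locus higher in 111 pairs. Counts per base of genomic span turned this round, with a median log2 ratio of 0.79 and the antisense locus higher in 248 pairs, since the sense loci were long. FPKM carries a limit, because the length it implies exceeded the genomic span for 120 of the antisense loci (29.6%) and for 6.02% of the sense loci. This share was 31.0% over all loci, 48.7% for the other unnamed loci with a strand and 23.7% for named loci. The antisense share was thus near that of the whole table. On all 3 scales 148 antisense loci were lower than the sense locus and 61 were higher.

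The ratio depended on what kind of sense locus was faced. Opposite loci with a reference transcript, the antisense level had a median of 6.32 CPM against 105 CPM for the sense locus, the median log2 count ratio was -3.68, and 11 of 266 antisense loci had the higher count. Opposite loci of assembled transcripts only, the antisense median was 6.58 CPM against 13.3 CPM, the ratio was -0.57, and 58 of 139 had the higher count. The antisense levels were nearly equal in both sets, and the sense level differed.

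**Figure D1:**
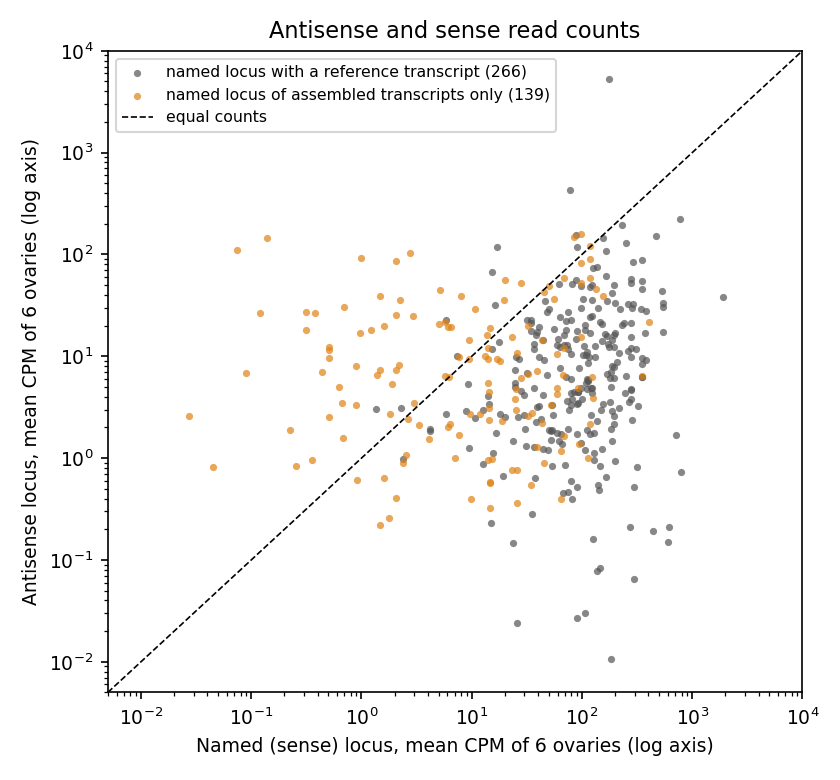
Mean CPM over 6 ovaries of each antisense locus (vertical log axis) against that of its named sense locus (horizontal log axis), 1 point per antisense locus, with the dashed line at equal counts. Most grey points, opposite loci with a reference transcript (266), lie under the line, and 58 of the 139 orange ones, opposite loci of assembled transcripts only, lie above it.

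The most abundant antisense locus was MSTRG.13640, 366 bases on scaffold NW_004973413.1 (11507136 to 11507501, minus strand), inside the joined locus LOC102091934;LOC102092657, described as glutathione S-transferase, an enzyme family that conjugates glutathione to toxic compounds. It had 4437, 3336 and 4280 CPM in the HP ovaries, against 5032, 7361 and 7323 CPM in the LP ovaries. The sense locus had 141, 200 and 210 CPM in the HP ovaries, against 215, 178 and 121 CPM in the LP ovaries. All HP ovaries were below all LP ovaries at the antisense locus, and the sense groups overlapped. The antisense log2 fold change was -0.71 ± 0.20 (SE, edgeR, adjusted p = 0.572), under the limit of 1 on the fold change used below.

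A few other antisense loci exceeded their sense genes many times. MSTRG.23225, which overlapped the 5′ end of LOC102094442, had 124, 140 and 113 CPM in HP and 82.3, 94.7 and 114 CPM in LP, while the sense locus had 28 counts in HP2, 16 in LP4 and 0 in the other 4 ovaries. The antisense locus of SH3RF3;LOC110358900 (SH3RF3 is a RING finger ubiquitin ligase) had 53.9 to 80.8 CPM in HP and 51.2 to 86.6 CPM in LP, against 13.8 to 16.5 CPM in HP and 10.7 to 19.0 CPM in LP for the sense locus. Opposite LOC110364604, named a lncRNA in RefSeq, the antisense level was 92.8 to 120 CPM in HP and 99.5 to 154 CPM in LP, and the sense level was 9.12 to 19.0 CPM in HP and 6.95 to 31.7 CPM in LP. The antisense loci of LOC110364244, LOC110359889 and TMOD4 (tropomodulin, which caps actin filaments in skeletal muscle) stood between 6.25 and 37.8 CPM in every ovary, and their sense loci between 0 and 2.68 CPM. The pairs of SH3RF3;LOC110358900, LOC110364604, LOC110364244, LOC110359889 and TMOD4 had the 5 highest FPKM ratios among sense loci of at least 1 FPKM, and the last 3 of them faced loci of assembled transcripts only. The locus of LOC110355006;TMEM250;NACC2 was among the 5 highest by FPKM, with 61.6 to 69.6 CPM in HP and 72.5 to 102 CPM in LP. The groups did not overlap there, and its sense locus was also lower in HP, with 111 to 132 CPM in HP and 142 to 168 CPM in LP.

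Some sense genes faced several antisense loci. WWOX, an oxidoreductase with WW domains, faced 8, SOX5, a SRY-box transcription factor, faced 7, and NHS and PDE3A faced 4 each. In all, 31 sense loci faced 2 and 15 faced at least 3. The 8 loci opposite WWOX share 1 sense locus of 300299 bases at 279 CPM and are not independent of each other. Their mean levels ran from 3.77 to 57.2 CPM, and their correlations with WWOX across the 6 ovaries from -0.60 to 0.72, with a median of 0.11. The 7 loci opposite SOX5 had mean levels of 6.30 to 88.7 CPM and correlations of -0.08 to 0.68. The highest of them, MSTRG.16421, had 86.2, 78.7 and 87.2 CPM in HP and 93.5, 89.6 and 97.1 CPM in LP, against 311 to 378 CPM in HP and 359 to 364 CPM in LP for SOX5. Its neighbour MSTRG.16420 had 1613, 1241 and 0 counts in HP and 1452, 1559 and 0 counts in LP, so it was at 0 in HP3 and LP6 with no such gap in SOX5. The 4 loci opposite PDE3A, a phosphodiesterase that degrades cyclic AMP, had 2.18 to 122 CPM on average, and the sense locus, of assembled transcripts only, had 118 CPM.

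Some antisense loci had many counts in one ovary and none in another. Of the 379 antisense loci with over 100 counts in some ovary, 51 had 0 counts in at least 1 other ovary (13.5%), where the share over all loci was 2.29%. It was 4.38% for the sense loci, 7.63% for the other unnamed loci with a strand and 1.59% for named loci. These shares were not tested. Zeros lay in both groups in 34 of the 51, in HP only in 8 and in LP only in 9. Whether they followed the groups cannot be decided from this split, since the number of zeros fixed much of it. The 14 loci with 4 zeros and the 7 with 5 had to have them in both groups, and the 13 with 1 zero could not. Only the 4 loci with 3 zeros could have 0 counts in all of 1 group and reads in all of the other. None of these 4 did. Among all antisense loci, 15 had 0 counts in a whole group, with reads in only part of the other. A coordinate shared exactly with the start or end of the sense locus was found in 28 of these 51 (54.9%) and in 49 of the 328 others above 100 counts (14.9%).

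The antisense locus of EGFR, the epidermal growth factor receptor, had the highest count among these 51 and was chosen after its values were seen. MSTRG.13214 (scaffold NW_004973403.1, 1478389 to 1520117, minus strand) begins at the same base as the EGFR locus. It had 18509 counts in HP1 and 0 in HP2, HP3, LP4, LP5 and LP6. EGFR itself had 34929, 40563 and 29705 counts in HP, against 37019, 45907 and 47977 in LP. HP1 stood between HP2 and HP3 in EGFR. GNG7 and AKAP13 were picked in the same way. The antisense locus of GNG7 (a G protein gamma subunit) had 2234 counts in LP4 alone, and one opposite AKAP13, a kinase anchoring protein, had 32, 4601 and 0 counts in HP and 5552, 0 and 66 in LP.

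Locus pairs with nearly the same ends on both strands showed counts that were either equal or absent. In 10 pairs both ends lay within 10 bases of those of the sense locus, all 10 facing assembled transcripts. Of their 60 pairs of counts, 28 were within 1% of each other, 27 had 0 on one strand, and 5 were neither. ITFG1 had 634, 677 and 526 counts in HP and 825, 491 and 663 in LP on either strand, identical in all 6 ovaries. It was the 1 pair of the 405 whose counts matched within 1% throughout. DLGAP3, a postsynaptic scaffold gene, had 5503, 5416 and 6416 antisense counts in HP and 0, 6135 and 6850 in LP, against 0, 5416 and 6418 sense counts in HP and 5790, 6133 and 6850 in LP. CNOT9, a subunit of the CCR4-NOT deadenylase, had 3368, 3645 and 4719 antisense counts in HP and 3117, 0 and 3460 in LP, against 0, 3645 and 0 sense counts in HP and 0, 2726 and 0 in LP. Whether the same reads were counted on both strands was not tested. ITFG1, DLGAP3 and CNOT9 were picked after their values were seen. Opposite-strand pairs of named loci were compared whatever their ends. Counts matched within 1% in 2 of 2251 pairs that share a symbol and in 0 of 5529 that do not. Over the whole table, 71 opposite-strand pairs had both ends within 10 bases of each other. How often counts were equal or absent in those outside the 10 above was not computed.

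**Figure D2:**
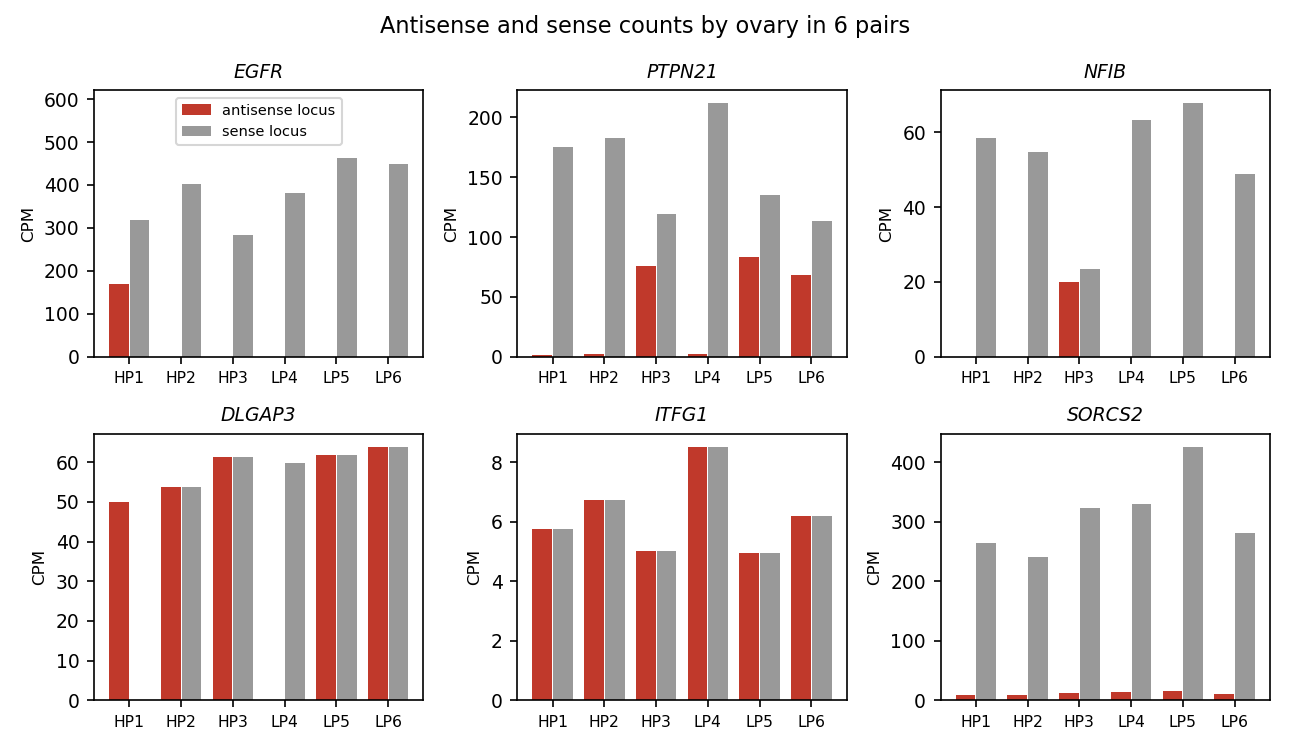
CPM of the antisense locus (red) and its sense locus (grey) in each ovary for 6 pairs, HP ovaries left and LP ovaries right, on axes that start at 0. The EGFR antisense locus appears in HP1 only, those of PTPN21 and NFIB are high where the sense bar is low, DLGAP3 and ITFG1 show equal bars wherever both are present, and SORCS2 is far above its antisense locus in every ovary.

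Across the 6 ovaries the median correlation of the antisense loci with their sense genes was low. Over the 382 pairs with a mean FPKM of at least 0.1 at both loci, the Pearson correlation of log2 CPM had a median of 0.13 (quartiles -0.34 and 0.56) and was above 0 in 220 pairs (57.6%). Spearman's rho had a median of 0.14, and without the 2 ovaries farthest from the median of the sense locus the median r was 0.15. The exact permutation p over all 720 pairings was under 0.05 in 59 pairs (15.4%), 45 with a positive and 14 with a negative r, where 12.5% of all 6823 opposite-strand pairs of the table reached it. After Benjamini-Hochberg adjustment over the 6823 pairs none passed 0.05, and the smallest adjusted p was 0.161. The smallest p among them was 0.00139.

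Other pairs set these values in place, as a description without a test. Opposite-strand pairs of named loci had a median r of 0.23 (4125 pairs with different symbols) and 0.33 (2063 pairs that share a symbol). Each antisense locus and the nearest named locus that it did not overlap had a median r of 0.26 (351 pairs, on the same libraries). In the 339 antisense loci with both values, r was higher with the sense gene than with that neighbour in 156. Both strands of a pair were read from the same library, which all these correlations share.

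**Figure D3:**
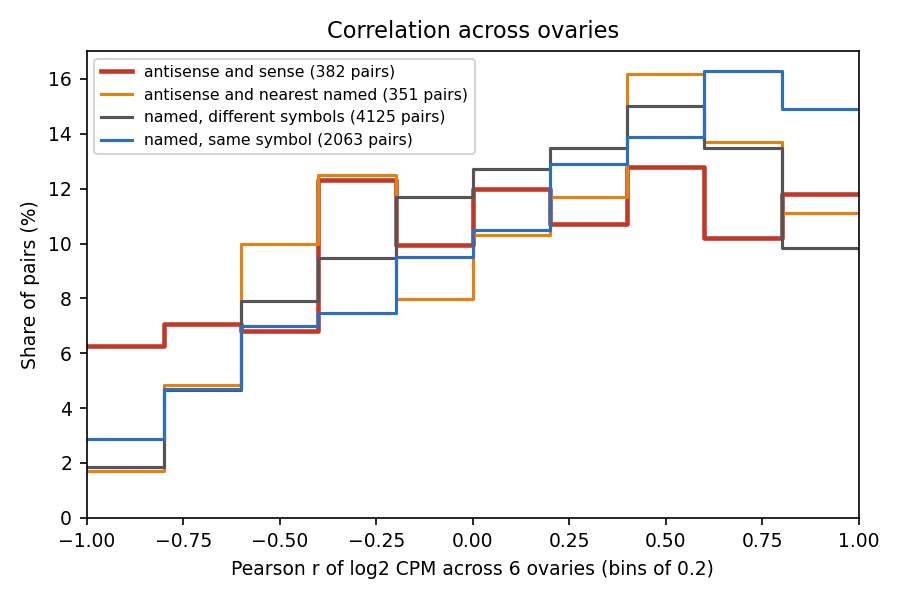
Share of pairs (vertical axis, %) by Pearson r of log2 CPM across 6 ovaries (horizontal axis, bins of 0.2) for antisense loci with their sense gene (red), antisense loci with the nearest named locus (orange), and opposite-strand pairs of named loci with different (grey) or the same symbol (blue). In the lowest bin, r under -0.8, the red line is at 6.28% of pairs, against 1.71% for the nearest named locus, 1.84% for different symbols and 2.86% for the same symbol.

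The median r differed with the position of the locus. It was 0.18 for the 299 pairs with the antisense locus inside the sense locus, -0.04 for 39 pairs with overlapping 3′ ends, -0.06 for 38 with overlapping 5′ ends and -0.86 for the 6 that spanned the whole sense locus. It was 0.18 for the 331 pairs that had no zero beside a count above 100 at the antisense locus, and -0.22 for the 51 that had one. Of the 14 pairs with a negative r and p under 0.05, 10 faced loci of assembled transcripts only. Of the 45 with a positive r, 9 did. In 12 of the 14 negative pairs, the CPM of both strands summed had a lower coefficient of variation across ovaries than either strand alone. A negative correlation itself lowers the variation of a sum, so this cannot tell how the counts arose. Whether reads were divided between the strands there was not tested.

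Among pairs above 1 FPKM at both loci, the 4 with the highest r were these. The antisense locus of SORCS2, a sorting receptor of the VPS10 family, had 9.26, 8.13 and 11.7 CPM in HP and 14.5, 16.1 and 10.5 CPM in LP, against 265, 241 and 322 CPM in HP and 329, 426 and 282 CPM in LP for SORCS2. The ovaries had the same order at both loci (r = 0.95, rho = 1, exact permutation p = 0.00139, adjusted p = 0.161), and r was 0.92 without the 2 outermost ovaries. At LOC110365242;LOC110365240 the antisense locus had 225, 224 and 134 CPM in HP and 149, 298 and 300 CPM in LP, against 716, 698 and 440 CPM in HP and 583, 1017 and 1150 CPM in LP for the sense locus, again in the same order (r = 0.96, exact permutation p = 0.00694, adjusted p = 0.251). For ATRN;LOC110361635 (ATRN is attractin, a membrane protein of pigmentation and myelin in rodents) r was 0.96 (exact permutation p = 0.0111), with 7.05 to 7.74 CPM in HP and 6.59 to 10.5 CPM in LP at the antisense locus. For LOC110361020 r was 0.96 (exact permutation p = 0.00556), with 30.3 to 41.5 CPM in HP and 26.5 to 43.7 CPM in LP. In each of these pairs HP and LP overlapped at the antisense locus.

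The 4 with the lowest r were opposite LOC110355126, NFIB, DIP2B and PTPN21. The locus that overlapped the 5′ end of DIP2B, a disco-interacting protein, had 6.0, 8.92 and 17.7 CPM in HP and 14.2, 2.67 and 6.71 CPM in LP, against 15.3, 14.8 and 11.7 CPM in HP and 13.0, 26.6 and 21.0 CPM in LP for DIP2B (r = -0.92, exact permutation p = 0.00833, adjusted p = 0.264, and r = -0.96 without the 2 outermost ovaries). The ovaries of the other 3 pairs fell into separate clusters, so only their values are given. PTPN21, a protein tyrosine phosphatase, had 1.26, 2.56 and 75.8 CPM antisense in HP and 2.00, 83.0 and 68.6 CPM in LP, against 175, 183 and 119 CPM in HP and 212, 135 and 114 CPM in LP for the sense locus. The 3 ovaries with high antisense counts, HP3, LP5 and LP6, had the 3 lowest sense levels. NFIB, a nuclear factor I gene, had 2106 antisense counts in HP3 and 0 elsewhere, and its sense level was 23.4 CPM in HP3 and 48.8 to 67.8 CPM in the other ovaries. LOC110355126 had 1362 and 1463 antisense counts in HP1 and HP2 and 0 in HP3 and all LP ovaries, and its sense level was 6.28 and 4.38 CPM in HP1 and HP2 and 16.8 to 22.8 CPM in the others. DIP2B, NFIB, PTPN21 and LOC110355126 all faced loci of assembled transcripts only. For both strands summed, the coefficient of variation was 12.2% at DIP2B, 16.1% at NFIB, 8.80% at PTPN21 and 11.6% at LOC110355126. Each was below that of either strand alone, which the choice of pairs with a strongly negative r favours.

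The study asked which transcripts differ between ovaries of high and low egg production. Of the antisense loci, 394 passed the filter of a mean FPKM of at least 0.1 and 11 did not. In edgeR's quasi-likelihood test over all 28274 loci that passed, 13 antisense loci (3.30%) met both limits, an unadjusted p under 0.05 and a log2 ratio of group mean FPKM of at least 1 in size, where 3.11% of all tested loci did. Of these, 6 were higher in HP (2.09% of all tested loci were) and 7 lower (1.02% were). An unadjusted p under 0.05 was found in 31 (7.87%), against 8.24% of all tested loci, and HP and LP did not overlap in 45 (11.4%), against 14.6%. After adjustment over the 28274 loci none passed 0.05, against 0.0106% of all tested loci, and the smallest adjusted p was 0.560. DESeq2 put 4 of the 394 antisense loci under an adjusted p of 0.05, and 385 of all 28274 loci. Both totals include loci that got no p from DESeq2. The 4 lay opposite LOC110360958;LOC110360959, TPRA1;CHCHD6, MORC2 and EHMT1. With all 6 ovaries the share of antisense loci was close to that of all loci, and with 1 ovary left out it was higher. Without HP2, 24 antisense loci met the limits (6.12% of those tested, against 2.49% of all loci), and 11 of them were among the 13. Without HP3 there were 22 (5.63%, against 3.70%), 9 of them among the 13. Without LP4 there were 21 (5.38%, against 3.19%) and without LP6 also 21 (5.36%, against 3.37%), each with 10 among the 13. The excess was smaller without HP1, with 18 (4.6%, against 3.7%), and without LP5, with 16 (4.1%, against 3.6%), each with 8 among the 13. These shares were not tested against each other.

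The 5 of the 13 in which the groups did not overlap were 1 higher and 4 lower in HP. MSTRG.11587 (scaffold NW_004973368.1, 1087877 to 1090263, minus strand), inside the lncRNA locus LOC110360958;LOC110360959, had 4.69, 1.0 and 3.27 CPM in the HP ovaries, against 0.764, 0.374 and 0.392 CPM in the LP ovaries. That was 2.99 ± 1.86 in HP and 0.510 ± 0.220 in LP (SD, n = 3 each), a log2 fold change of 2.55 ± 0.62 (SE, edgeR, adjusted p = 0.560). Its sense locus had 40.0 to 229 CPM in HP and 62.8 to 165 CPM in LP, with a log2 fold change of 0.23. All HP ovaries were above all LP ovaries at the antisense locus, with HP2 near LP4, and the sense groups overlapped. In edgeR neither locus had an adjusted p under 0.05.

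MSTRG.14837 (scaffold NW_004973446.1, 683923 to 685329, minus strand) lay inside TPRA1;CHCHD6, which joins a transmembrane protein gene with that of the mitochondrial MICOS subunit MIC25. It had 1.81, 1.57 and 2.52 CPM in HP, against 11.4, 13.9 and 2.77 CPM in LP, a log2 fold change of -2.25 ± 0.59 (SE, edgeR, adjusted p = 0.564). LP6 stood close to the HP ovaries. The sense locus was level, with 108 to 119 CPM in HP and 104 to 118 CPM in LP. Opposite ALG9, a mannosyltransferase of N-glycan synthesis, MSTRG.4229 (scaffold NW_004973237.1, 2111760 to 2114104, plus strand, 3′ ends overlapping) had 0.291, 0.566 and 1.02 CPM in HP, against 2.43, 3.57 and 1.42 CPM in LP (log2 fold change -1.98 ± 0.56, SE, edgeR, adjusted p = 0.572). ALG9 had 4.66 to 5.18 CPM in HP and 1.33 to 5.31 CPM in LP, so the 2 LP ovaries with most antisense counts, LP4 and LP5, had least ALG9. Both strands together had 4.95, 5.72 and 6.20 CPM in HP, against 5.36, 4.91 and 6.73 CPM in LP. Whether reads at ALG9 were divided between the strands was not tested.

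Opposite CTIF, a factor of translation on newly exported mRNA, MSTRG.17343 (scaffold NW_004973534.1, 81077 to 83226, minus strand) had 0.664, 0.824 and 0.697 CPM in HP, against 1.59, 2.11 and 0.924 CPM in LP (log2 fold change -1.08 ± 0.37, SE, edgeR, adjusted p = 0.584). CTIF itself had 10.1 to 15.8 CPM in HP and 15.4 to 23.5 CPM in LP, overlapping between groups. The unadjusted p of the CTIF antisense locus was no longer under 0.05 without HP1, HP3, LP4 or LP5, where the log2 fold change was -1.01, -1.05, -1.06 and -0.79. The remaining one of the 5, MSTRG.14148 opposite WWOX (scaffold NW_004973422.1, 1578137 to 1603960, minus strand), had 2, 0 and 1 counts in HP, against 15, 7082 and 31 in LP. Nearly all its reads came from LP5. Without LP5 it fell under the FPKM filter, and with LP5 limma on log2 FPKM gave an unadjusted p above 0.05. WWOX had 227 to 331 CPM in HP and 267 to 291 CPM in LP. The other 7 loci opposite WWOX did not meet the limits.

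The 8 others that met both limits overlapped between the groups. Opposite LOC102086050 the HP ovaries had 33.9, 1.11 and 20.8 CPM and the LP ovaries 0.485, 1.98 and 1.38 CPM, with HP2 among the LP values. The locus opposite LOC102084126, described as RAB11B, a GTPase of recycling endosomes, had 14.2, 20.1 and 4.34 CPM in HP, against 6.68, 3.36 and 4.41 CPM in LP. Opposite VEZT, an adherens junction protein, 15.3, 4.12 and 8.35 CPM in HP stood against 3.15, 4.89 and 3.28 CPM in LP, and opposite LOC110357140 the levels were 1.92 to 3.50 CPM in HP and 0.959 to 2.12 CPM in LP. EHMT1, a histone H3 lysine methyltransferase, had 0.300, 0.288 and 0.277 CPM antisense in HP, against 8.73, 0.192 and 4.15 CPM in LP, with LP5 under every HP ovary.

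Reads in 2 ovaries of one group carried the other 3. Opposite MORC2, a chromatin ATPase, the HP ovaries had 0 counts and the LP ovaries 157, 2512 and 0, which makes HP at least 315-fold lower, with HP set to a floor of 3 counts per library. Opposite EXOC6B, a subunit of the exocyst, the HP ovaries had 0 counts and the LP ovaries 0, 186 and 884 (at least 118-fold lower in HP). Opposite LOC110355126, given above, HP was at least 301-fold higher than LP at that floor, with HP3 at 0. This antisense locus has the same ends as its sense locus. Both strands together had 18.7, 18.9 and 16.9 CPM in HP, against 16.8, 22.8 and 19.5 CPM in LP. Whether reads of 1 transcript were divided between the strands was not tested. These bounds cover counting error only and rest on group means. Of the 7 loci lower in HP, 5 were highest in LP5, 1 in LP4 and 1 in LP6. The share highest in LP5 among all loci lower in HP was not computed, so this split cannot be called unusual. LP5 also had the highest smooth muscle sum, 2589 CPM, and LP4 the next, 1497 CPM. The part of that tissue in these values was not tested.

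**Figure D4:**
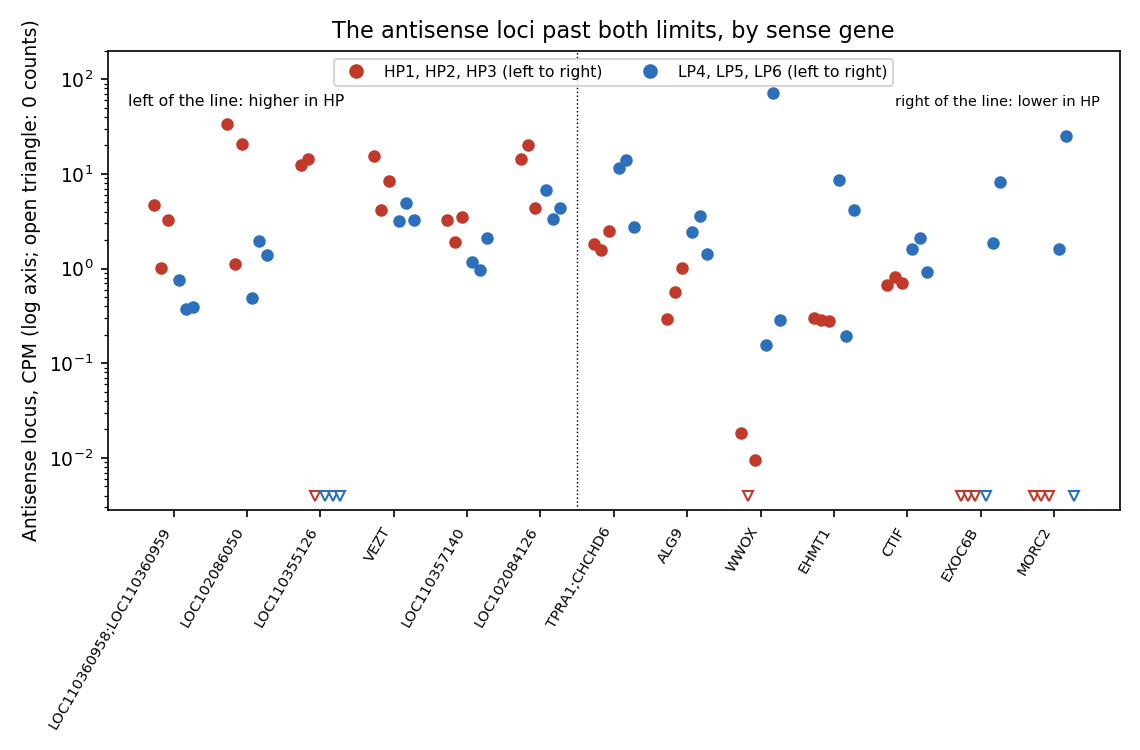
CPM (log axis) of the 13 antisense loci that met both limits, by sense gene, with the HP ovaries (red) left of the LP ovaries (blue) at each locus and open triangles for 0 counts. The 6 left of the dotted line were higher in HP and the 7 right of it lower, and only LOC110360958;LOC110360959, TPRA1;CHCHD6, ALG9, WWOX and CTIF show no overlap between HP and LP.

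No sense gene of the 13 had an unadjusted p under 0.05. Their fitted log2 fold changes lay between -1.10 and 0.65, and 12 were under 1 in size. Each of these p-values sets the difference between groups against a spread between birds, which edgeR estimates with help from all tested loci. Of the 6 antisense loci higher in HP, 2 had a sense gene with a fold change above 0, and of the 7 lower, 3 had one below 0. Of the 321 sense loci tested, 5 met both limits (1.56%, against 3.11% of all tested loci), each opposite an antisense locus that did not. These were DENND3, with 3, 0 and 0 counts in HP and 42, 2 and 6 in LP, and LOC110360362, SPRED2, MYO9B and KCNQ5;LOC110361951.

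**Figure D5:**
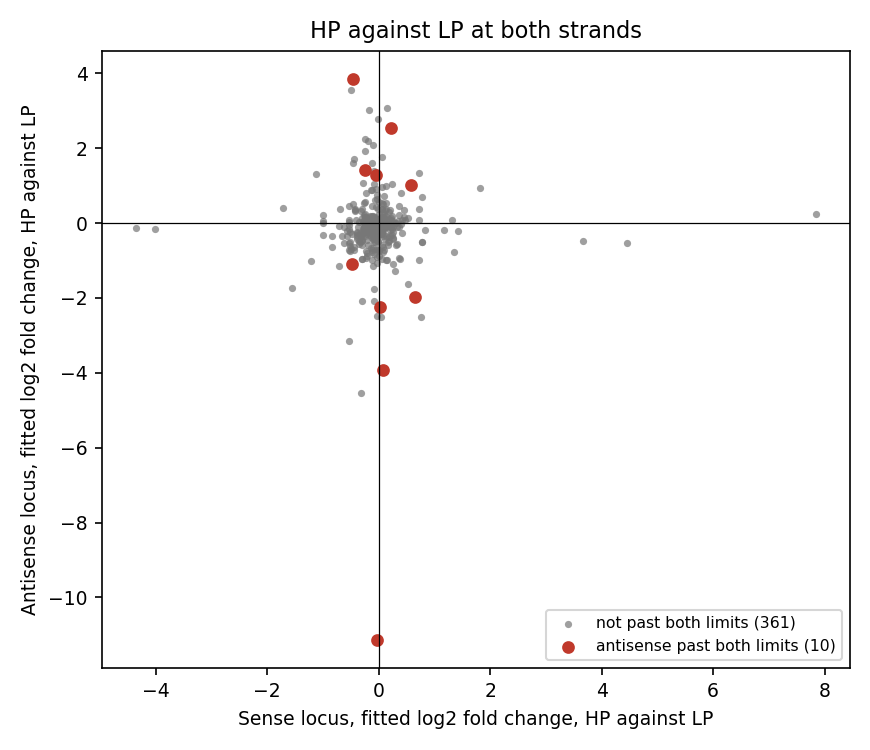
Fitted log2 fold change, HP against LP, of the antisense locus (vertical axis) and its sense locus (horizontal axis) for the 371 pairs with a fit at both loci and antisense counts in both groups. The 10 red points, antisense loci that met both limits, lie between -0.48 (CTIF) and 0.65 (ALG9) on the horizontal axis, and WWOX is the point near -11 on the vertical one.

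As a set the antisense loci leaned to lower values in HP. Their median log2 fold change was -0.11, and 252 of 394 (64.0%) were below 0, against a median of -0.01 and 51.0% below 0 over all tested loci. Without HP3 their median was nearer to 0, at -0.0669, against -0.00642 over all loci. The other unnamed loci with a strand had -0.11 and 61.8%, unnamed loci without a strand -0.17 and 67.5%, named loci 0.01 and 48.1%, and the sense loci -0.06 and 58.3%. The lean was thus shared with the other unnamed loci. These medians are descriptions without a test, and the loci are not independent of each other.

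The ratio of antisense to sense counts within a library, which is free of library size, was compared between HP and LP with limma over all 6823 opposite-strand pairs. Of the 382 pairs tested, 18 had an unadjusted p under 0.05 (4.71%, against 5.77% of all pairs), 7 with a higher and 11 with a lower ratio in HP. None had an adjusted p under 0.05, against 0.044% of all pairs, and the smallest was 0.801. The smallest unadjusted p was that of LOC102084126, with a log2 ratio 1.49 higher in HP (limma, adjusted p = 0.801). Opposite KCNQ5;LOC110361951 (KCNQ5 is a potassium channel) the sense locus differed more than the antisense locus. The antisense locus had 96.7, 153 and 153 CPM in HP, against 94.1, 90.5 and 120 CPM in LP, while the sense locus had 86.0, 24.6 and 16.9 CPM in HP, against 125, 174 and 118 CPM in LP. Both strands of this pair together had 183, 178 and 169 CPM in HP, against 219, 264 and 238 CPM in LP. SORL1, a sorting receptor, faced 3 antisense loci, 2 of them among the 18, both with a log2 ratio of -1.31, and these share their sense counts. KCNQ5 and SORL1 were named after their values were seen.

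The 4 lists of genes of ovarian function held 3 genes that faced an antisense locus. None of the 18 ovarian hormone genes in the table (of 27 on the list, FSHR, STAR, ESR1 and the like) and none of the 33 oocyte and germ cell genes (of 45) did. Of the 41 gonad and urogenital transcription factors (of 44), WT1 and NR2F1 did, and of the 50 genes of TGF-beta, Wnt and related signalling (of 53), IGFBP5 did. The lists count gene symbols as the table gives them, and 332 of 27340 named loci (1.21%) faced an antisense locus, so that counts of 0 in lists of this size are near that share. None of the 3 antisense loci had an unadjusted p under 0.05.

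The antisense locus of WT1, a zinc finger factor of gonad and kidney development, had 2.19, 2.80 and 1.87 CPM in HP, against 2.78, 2.16 and 2.48 CPM in LP, a log2 fold change of -0.11 ± 0.25 (SE, edgeR, adjusted p = 0.924). WT1 had 278, 300 and 266 CPM in HP and 307, 249 and 300 CPM in LP, and both varied together (r = 0.82, rho = 0.77, exact permutation p = 0.0444, adjusted p = 0.375). NR2F1, an orphan nuclear receptor also known as COUP-TF1, faced an antisense locus of 70.9, 96.1 and 101 CPM in HP and 94.6, 83.5 and 72.9 CPM in LP, while the assembled locus that bears its name had 6, 870 and 9 counts in HP and 0, 343 and 7 in LP. IGFBP5, which binds insulin-like growth factors, had 121 antisense counts in LP4 and 0 in the other ovaries, against 258 to 311 CPM in HP and 211 to 328 CPM in LP for IGFBP5 itself.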

How the data were processed

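Ovary RNA of 6 birds was sequenced after rRNA depletion as strand-specific libraries. The authors deposited 1 table that gives each locus its count and its FPKM in every ovary. Per the labels and methods, reads were trimmed with Cutadapt 1.9, checked with FastQC 0.10.1, mapped to Cliv_1.0 with HISAT2 2.0.4 (Bowtie2 is also named), and assembled and quantified with StringTie 1.3.4 and Ballgown. How reads were counted, and whether strand was used, is not given in the sources used here. FPKM of the deposited table depends on a transcript length that the table does not give.

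A locus was tested if its FPKM averaged 0.1 or more, using edgeR 4.0.16 (TMM, quasi-likelihood test, R 4.3.3) on counts, with Benjamini-Hochberg adjustment over all of them. The SE beside an edgeR log2 fold change was derived from that test. It is the size of the fold change divided by the square root of the F statistic, and so is approximate. Antisense to sense ratios, log2 with 0.5 added to each count, were tested with limma 3.58.1, and FPKM ratios had 0.01 added. Correlations used log2 CPM with a prior count of 0.5 and exact permutation over 720 pairings (numpy 2.4.6). For a single value, 3 against 3 ovaries cannot go below p = 0.1 by exact permutation. DESeq2 1.42.0, limma on log2 FPKM, other scalings and filters, and leaving out each ovary were alternatives. The fits were tested on counts simulated with known changes and the spread usual for loci of their level. That simulation did not model loci absent in some ovaries and abundant in others, so it cannot tell how the fits treat them.

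Loci were named if they met both limits without overlap between groups, were among the 5 highest by FPKM, the 4 highest or 4 lowest by correlation or the 5 highest by FPKM ratio, or faced a listed gene. Other loci were named after their values were seen. The members and lists were chosen with earlier results of these data known.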

Additional observations from a re-analysis of the deposited data

How the results depend on the processing

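The 13 antisense loci past both limits became 10 to 16 of 374 to 405 fitted under the other tools, scalings and filters. DESeq2 gave no p to some of its 394, and its 16 were 4.36% of those with a p. Of all loci, 3.02 to 3.64% met the limits there. The 3.64% is that of DESeq2, taken over all 28274 loci, also those without a p. The number of antisense loci past both limits was 9 among those above 0 counts in every ovary, and 16 to 24 with 1 ovary left out. It was 24 without HP2, 22 without HP3, 21 without LP4 and 21 without LP6 (5.36 to 6.12% of those tested, against 2.49 to 3.70% of all loci). It was 18 without HP1 and 16 without LP5 (4.6% and 4.1%, against 3.7% and 3.6% of all loci). The lowest number shared with the 13 was 7, under limma. At an adjusted p under 0.05, DESeq2 gave 4 instead of 0, and leaving out 1 ovary gave 0 to 1, the 1 being LOC110362293 without LP5. The ratio test gave 0 to 2 pairs with 1 ovary left out, instead of 0. The median log2 ratio of antisense to sense FPKM, -2.25, was 0.79 with counts per genomic span, -2.86 with counts and no length, and -3.38 for sense loci with a reference transcript. The length used made the difference between the first 3. The median correlation of 0.13 was 0.073 with group means subtracted, 0.18 for pairs above 0 counts in every ovary, and 0.11 to 0.19 with 1 ovary left out. The causes of these were not tested. The restrictions to reference transcripts and to counts above 0 everywhere, and the counts with no length, were chosen after seeing the data. Over 25 named loci and 291 alternatives, the log2 fold change kept its direction and its side of the threshold in 255 and turned its sign in 13, all of loci not past the limits. With 1 ovary left out it ranged from -0.19 to 0.16 at LOC110361020 (0.043 under limma), -0.12 to 0.28 at SH3RF3;LOC110358900, -0.0029 to 0.24 at NR2F1, -0.076 to 1.22 at DIP2B, -0.28 to 0.013 at WT1, -0.29 to 0.061 at ATRN;LOC110361635 and -0.33 to 0.029 at TMOD4. The WWOX locus got no p from DESeq2, was past no limit on p under limma (log2 fold change -1.49) and was under the filter without LP5. The median log2 fold change minus that of all loci, -0.10, ranged from -0.14 to -0.06 with 1 ovary left out, smallest without HP3. No paired analysis was possible because the HP and LP labels share no replicate number.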
